A study of Mus musculus with 36 samples.

Results

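The 31 genes described here encode the enzymes and regulators of cholesterol and fatty acid synthesis. They were taken as a named list: 18 enzymes of sterol synthesis, 6 genes of sterol sensing and transport, and 7 genes of fatty acid synthesis. All 31 were listed in both expression tables of the study, among 17771 genes in the table of neural stem cells (NSCs) and 17036 genes in the table of embryonic stem cells (ESCs), and 19426 genes in either. RNA-seq was compared between 2 TKO NSC and 3 WT NSC libraries and between 2 TKO ESC and 3 WT ESC libraries. TKO stands for a triple knockout of the Tet genes, which encode dioxygenases that oxidize 5-methylcytosine in DNA, and WT for Tet wildtype. All cells were male and of the V6.5 line, a mixed 129/C57BL/6 background. ESCs were freed of feeder cells by 45 minutes of preplating then grown for 24 hours on gelatin, in medium with serum and LIF. The NSCs were made from the ESCs in culture and harvested on day 6, at passage 1. The labels give each of the 2 TKO and 3 WT lines its own code, which recurs in ESCs and NSCs. The sources used here do not say whether the WT codes stand for separate clones or for cultures of 1 line, so the p-values measure the spread between these samples, which may be technical.

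Cholesterol is built from acetyl-CoA through mevalonate, isoprenoid units, squalene and lanosterol, and lanosterol is then demethylated and rearranged to cholesterol. Fatty acid synthesis starts from the same acetyl-CoA, which ATP citrate lyase makes in the cytosol. The transcription factors SREBP1 and SREBP2, encoded by Srebf1 and Srebf2, drive both sets of genes: when membrane sterol is low, the escort protein SCAP carries them from the endoplasmic reticulum to the Golgi for cleavage, and INSIG proteins hold them back when sterol is plentiful. SREBPs bind sterol regulatory elements in promoters, often beside sites for the factor NF-Y (CCAAT) and for SP1 (GC-rich). Neural cells make most of their own cholesterol, since lipoproteins do not cross the blood-brain barrier.

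Promoter windows from RefSeq (build GRCm38.p6), each running from 250 bases before to 50 bases after an annotated start, were found for 25 of the 31 genes, in 34 windows. No window was found for Fdft1, Fdps, Scd1, Scd2, Sqle and Stard4. The letters TCACNCCAC, a sterol regulatory element, were searched on both strands and occurred in 1 of the 34 windows, that of Hmgcs1, and in 1.24% of all 32851 windows. The letters CCAAT occurred in 22 of the 34 windows (64.7%) and in 37.4% of all windows. The letters GGGCGG occurred in 25 of the 34 windows (73.5%) and in 35.7% of all windows. A match is only a description of the letters, and a window with no match says nothing about the factor. Stretches upstream of the start are shown for 3 genes, chosen after their expression was seen: Hmgcs1, which was lower in TKO NSCs and holds the one match to the sterol regulatory element; Msmo1, which was lower in TKO cells of both types; and Fasn, which was higher in TKO cells of both types. Capitals mark TCACNCCAC and CCAAT, where CCAAT reads ATTGG if it lies on the opposite strand. In Fasn, the capitals CCAATTGG are 2 overlapping matches, 1 on each strand. The start used for Fasn and the stretch shown lie within the annotated span of the gene, which reaches position 120825166. The stretches of Hmgcs1 and Msmo1 lie outside the spans of their genes. The Hmgcs1 window also holds ATTGG with its first base at -237 and at 11 from the start, outside the stretch shown.
Hmgcs1, chr13:119690165-119690320, plus strand, 186 to 31 bases before the start: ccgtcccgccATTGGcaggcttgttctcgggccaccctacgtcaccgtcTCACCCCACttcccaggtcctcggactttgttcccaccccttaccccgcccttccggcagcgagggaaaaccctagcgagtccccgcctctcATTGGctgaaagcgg
Msmo1, chr8:64733619-64733748, minus strand, 170 to 41 bases before the start: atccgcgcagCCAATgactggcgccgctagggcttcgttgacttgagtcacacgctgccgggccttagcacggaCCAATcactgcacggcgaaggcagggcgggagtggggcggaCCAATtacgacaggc
Fasn, chr11:120824592-120824647, minus strand, 100 to 45 bases before the start: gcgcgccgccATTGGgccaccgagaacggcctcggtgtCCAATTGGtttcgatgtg

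Each library held 41.0 M to 49.1 M reads on listed genes. The Tet genes themselves were still counted in TKO cells: Tet1, for example, had 517 and 574 normalized counts in TKO NSCs, against 663, 717 and 901 in WT NSCs, and 4635 and 4966 in TKO ESCs, against 12237, 10599 and 9634 in WT ESCs. The sources used here do not name the deleted parts of the genes, so these counts are no check of the deletion. Of 8 neural stem cell markers, 8 were lower in TKO NSCs, with a summed level of 188321 to 197916 normalized counts, against 380211 to 392233 in WT NSCs. Of 7 fibroblast or feeder markers, 6 were higher in TKO NSCs (summed level 120911 to 142118, against 46846 to 59341 in WT NSCs), and of 7 ESC markers 4 were higher (2721 to 5250, against 1114 to 1301). Of 6 astrocyte markers, 4 were lower in TKO NSCs (1279 to 1409, against 2888 to 3561), and of 7 neuron markers 1 was higher and 3 were lower (10519 to 11237, against 12089 to 15043). Of 10 genes of sample handling and stress, 4 were higher and 2 lower in TKO NSCs (23460 to 27541, against 21138 to 22858). In ESCs, 5 of 7 ESC markers were higher in TKO (198214 to 224007, against 160097 to 181794 in WT) and 6 of 10 genes of sample handling and stress were lower (32554 to 33332, against 39876 to 42782). The median gene of chromosome 11, where Srebf1, Acly, Acaca and Fasn lie, stood 0.53 and 0.54 above WT on the log2 scale in the 2 TKO NSC libraries and 0.26 and 0.53 above it in the 2 TKO ESC libraries. The median gene of chromosome 8, where Mvd and Msmo1 lie, stood -0.39 and -0.41 from WT in the TKO ESC libraries but -0.01 and -0.04 in the TKO NSC libraries. The part of the cell type markers and of the stress genes in the differences below was not tested.

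In NSCs, the loss of the Tet genes went with lower levels of many sterol enzymes and a mixed response of the fatty acid genes. Of the 31 genes, 18 passed the test in TKO against WT NSCs, 6 of them higher and 12 lower, where 37.7% of all 17744 genes tested passed (18.2% higher and 19.5% lower). A gene passed when its Benjamini-Hochberg adjusted p, from limma on log2(normalized count + 1), was under 0.05, and every fold change below is TKO over WT on that scale. Among the sterol enzymes 8 of 18 fell and 1 rose, with a median log2 fold change of -0.20 against 0.01 over all genes tested. In bulk RNA, fewer cells that express a gene and less RNA per cell cannot be told apart.

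The early steps of the pathway held a large fall in NSCs. Hmgcs1, which condenses acetyl-CoA units into HMG-CoA, had 20774 and 23742 normalized counts in TKO NSCs, against 37036, 35506 and 37066 in WT NSCs. Both TKO libraries lay far below the narrow range of WT, a log2 fold change of -0.72 ± 0.06 (SE; adjusted p = 7.36e-06). Among the other enzymes up to isopentenyl pyrophosphate, Acat2, an acetoacetyl-CoA thiolase, and the kinases Mvk and Pmvk did not pass, with log2 fold changes of -0.12, -0.22 and 0.04. Mvd, which decarboxylates mevalonate pyrophosphate, was the 1 sterol enzyme that rose, with 4003 and 4120 normalized counts in TKO NSCs against 3674, 3383 and 3373 in WT NSCs (log2 fold change 0.23 ± 0.07, adjusted p = 0.0291). This small rise did not pass without either TKO library, or without WT library 2 or 3, or with all 10 libraries in 1 fit. Idi1, the isomerase of the isoprenoid unit, fell by 0.28 ± 0.09 on the log2 scale (adjusted p = 0.0281), with 1342 and 1490 normalized counts in TKO NSCs against 1731, 1701 and 1733 in WT NSCs; it did not pass without TKO library 1 or without any of the 3 WT libraries. With each library scaled to an equal total, Idi1 did not pass either. Fdps, the farnesyl pyrophosphate synthase, did not pass in the main test (0.03 ± 0.09, adjusted p = 0.843).

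Of the 11 enzymes from squalene synthase onward, 6 fell in NSCs. Sqle, squalene epoxidase, had 7372 and 8705 normalized counts in TKO NSCs, against 14428, 13696 and 14165 in WT NSCs. It had the largest fall of the sterol enzymes, with a log2 fold change of -0.81 ± 0.07 (adjusted p = 7.3e-06) and TKO libraries well apart from WT. Cyp51, the lanosterol demethylase, had 10142 and 10748 normalized counts in TKO NSCs, against 15351, 15328 and 15346 in WT NSCs, the WT libraries lying close together. Its log2 fold change was -0.56 ± 0.06 (adjusted p = 1.68e-05). Msmo1, the sterol C4-methyl oxidase, had 6465 and 7164 normalized counts in TKO NSCs, against 9968, 9378 and 9363 in WT NSCs (log2 fold change -0.49 ± 0.07, adjusted p = 0.000146). Nsdhl, which acts with Msmo1 in removing the C4 methyl groups, had 3034 and 3397 normalized counts in TKO NSCs, against 4361, 4293 and 3920 in WT NSCs (-0.38 ± 0.08, adjusted p = 0.00287). The groups did not overlap for Msmo1 or Nsdhl, but this held too for Acat2, Tm7sf2, Hsd17b7 and Srebf1, which did not pass in NSCs. Here and below, the share of all genes with groups apart was not counted. Hsd17b7, the ketoreductase of the same complex as Msmo1, had 1944 and 1994 normalized counts in TKO NSCs, against 1700, 1841 and 1810 in WT NSCs, and did not pass (0.14 ± 0.08, adjusted p = 0.213). Sc5d, the sterol C5 desaturase, had 3197 and 3384 normalized counts in TKO NSCs, against 4517, 4633 and 4416 in WT NSCs (-0.46 ± 0.07, adjusted p = 0.000286). Fdft1, squalene synthase, fell by 0.30 ± 0.07 on the log2 scale (adjusted p = 0.00478), with 6670 and 7098 normalized counts in TKO NSCs against 8738, 8758 and 7929 in WT NSCs. The remaining late enzymes did not pass: the lanosterol synthase Lss (-0.08), the sterol C14 reductase Tm7sf2 (-0.14), the isomerase Ebp (0.28) and the C7 reductase Dhcr7 (-0.18). Hmgcs1, Fdft1, Sqle, Cyp51, Msmo1, Nsdhl and Sc5d kept their calls in every setting tried, each library left out in turn included.

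**Figure D1:**
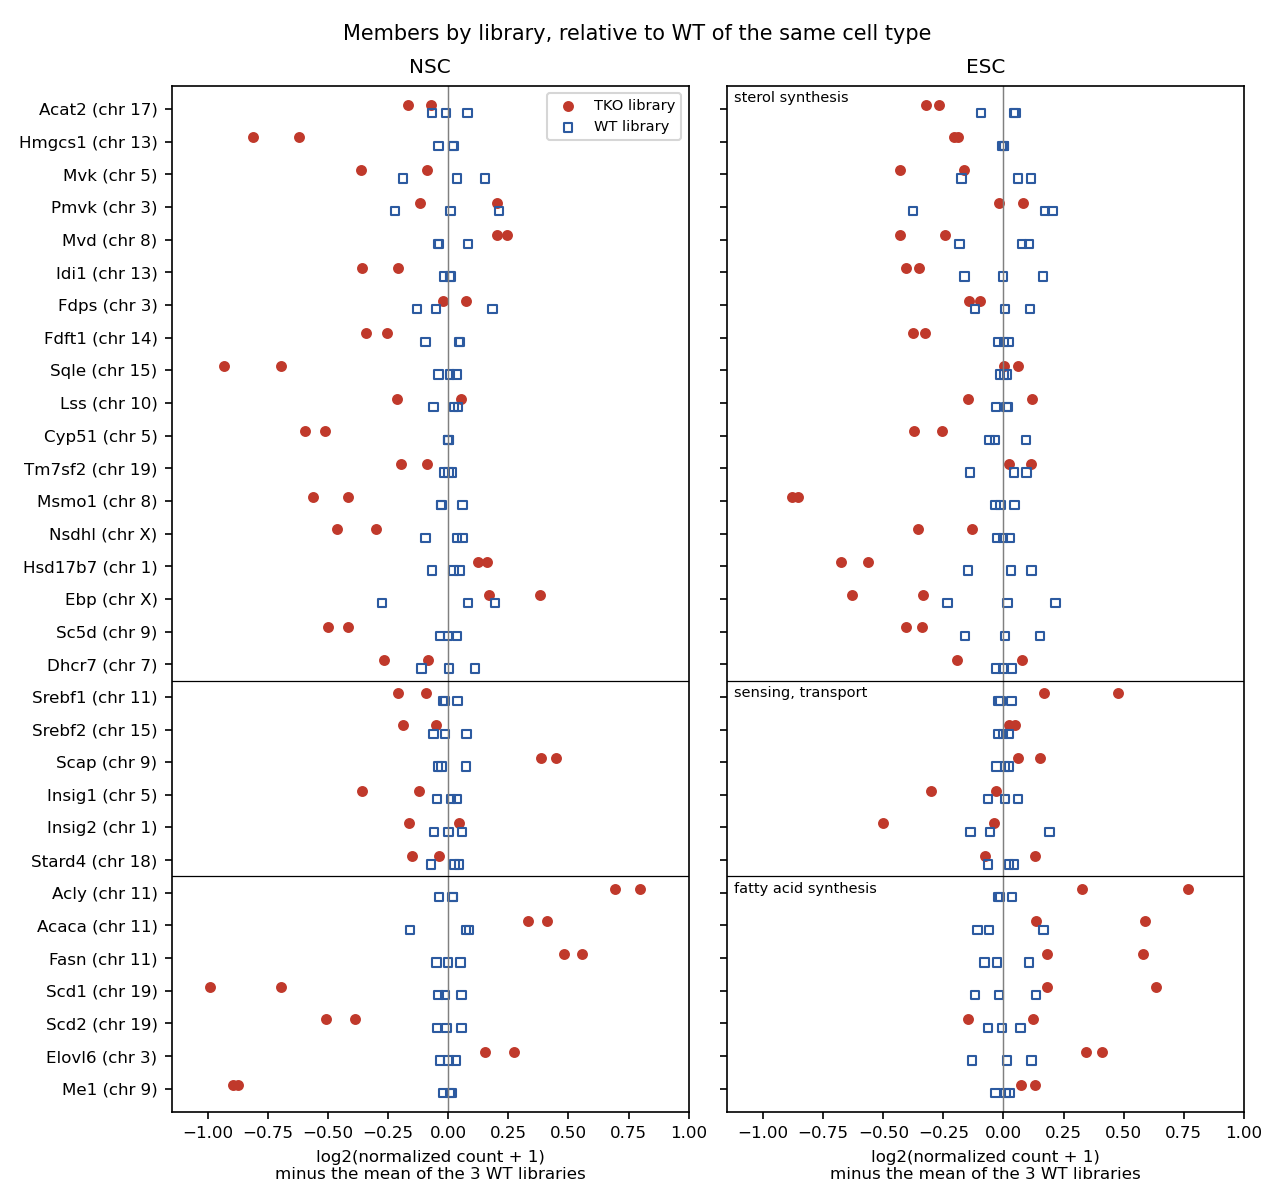
Each row is 1 of the 31 genes, with its chromosome, and each point is 1 library: log2(normalized count + 1) minus the mean of the 3 WT libraries of the same cell type, in NSCs (left) and ESCs (right). In NSCs the TKO libraries of Sqle, Hmgcs1, Scd1 and Me1 lie furthest below WT, and in ESCs those of Msmo1 and Hsd17b7.

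Of the 6 genes of sterol sensing and transport 1 rose and 1 fell in NSCs, 33.3% beside 37.7% of all genes tested. Scap, which escorts SREBPs to the Golgi, had 6136 and 5873 normalized counts in TKO NSCs, against 4361, 4407 and 4728 in WT NSCs. It rose by 0.42 ± 0.07 on the log2 scale (adjusted p = 0.00053), and the groups did not overlap. Insig1, which retains SCAP in the endoplasmic reticulum and is itself a known SREBP target, had 5481 and 6470 normalized counts in TKO NSCs, against 7213, 6808 and 7081 in WT NSCs (log2 fold change -0.24 ± 0.08, adjusted p = 0.0293). Insig1 did not pass when TKO library 1, or WT library 1 or 3, was left out. Nor did it pass with equal totals per library, with each library centred on the median of its chromosome, or with all 10 libraries in 1 fit. Srebf1 had 14203 and 15428 normalized counts in TKO NSCs, against 16263, 16864 and 16178 in WT NSCs, lower in both TKO libraries but short of the threshold (-0.15 ± 0.06, adjusted p = 0.0664). Srebf2, Insig2 and Stard4, a cytosolic sterol carrier, did not pass either, with log2 fold changes of -0.12, -0.06 and -0.09.

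All 7 fatty acid genes passed in NSCs, 4 higher and 3 lower, with a median log2 fold change of 0.21. For the 4 of them outside chromosome 11, the median stood at -0.70 and -0.54 from WT in the 2 TKO NSC libraries. The desaturases, which turn saturated into monounsaturated fatty acids, were lower. Scd1 had 9227 and 11316 normalized counts in TKO NSCs, against 17837, 19052 and 18168 in WT NSCs (log2 fold change -0.84 ± 0.08, adjusted p = 1.11e-05). Scd2, a second desaturase of this kind, had 100467 and 109052 normalized counts in TKO NSCs, against 138371, 148547 and 142148 in WT NSCs (-0.45 ± 0.06, adjusted p = 0.000126). Scd1 and Scd2 are near copies, and the sources used here do not say how shared reads were counted, so their separate levels are uncertain. Me1, malic enzyme, which supplies NADPH for fatty acid synthesis, had 2174 and 2209 normalized counts in TKO NSCs, against 4090, 4069 and 3988 in WT NSCs. It had the largest fall of the 31 genes in NSCs, with a log2 fold change of -0.89 ± 0.07 (adjusted p = 2.63e-06). Elovl6, which elongates palmitate, rose by 0.21 ± 0.07 (adjusted p = 0.0277), with 5321 and 5782 normalized counts in TKO NSCs against 4789, 4896 and 4677 in WT NSCs, and did not pass without TKO library 2 or without WT library 1 or 3.

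The other fatty acid genes that rose in NSCs lie on chromosome 11. Acly, ATP citrate lyase, had 27358 and 29397 normalized counts in TKO NSCs, against 17149, 17123 and 16471 in WT NSCs (log2 fold change 0.75 ± 0.06, adjusted p = 2.26e-06). Fasn, fatty acid synthase, had 34769 and 36607 normalized counts in TKO NSCs, against 25769, 24061 and 24867 in WT NSCs (0.52 ± 0.06, adjusted p = 2.77e-05). Acaca, acetyl-CoA carboxylase, had 4651 and 4917 normalized counts in TKO NSCs, against 3893, 3306 and 3923 in WT NSCs (0.37 ± 0.09, adjusted p = 0.00532). All TKO libraries of these genes lay above all WT libraries, and Acaca alone lost its call without a library, TKO library 2. On this chromosome 59.5% of the 1301 genes tested were higher in TKO NSCs and 6.07% lower, with a median log2 fold change of 0.53. Among them Acly stood at percentile 70.8, Fasn at 48.5, Acaca at 35.0 and Srebf1 at 12.5. With each library centred on the median of its chromosome, Acly was still higher (0.21, adjusted p = 0.014), Fasn and Acaca changed sign and did not pass (-0.02 and -0.17), and Srebf1 was lower (-0.69, adjusted p = 7.73e-06).

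**Figure D2:**
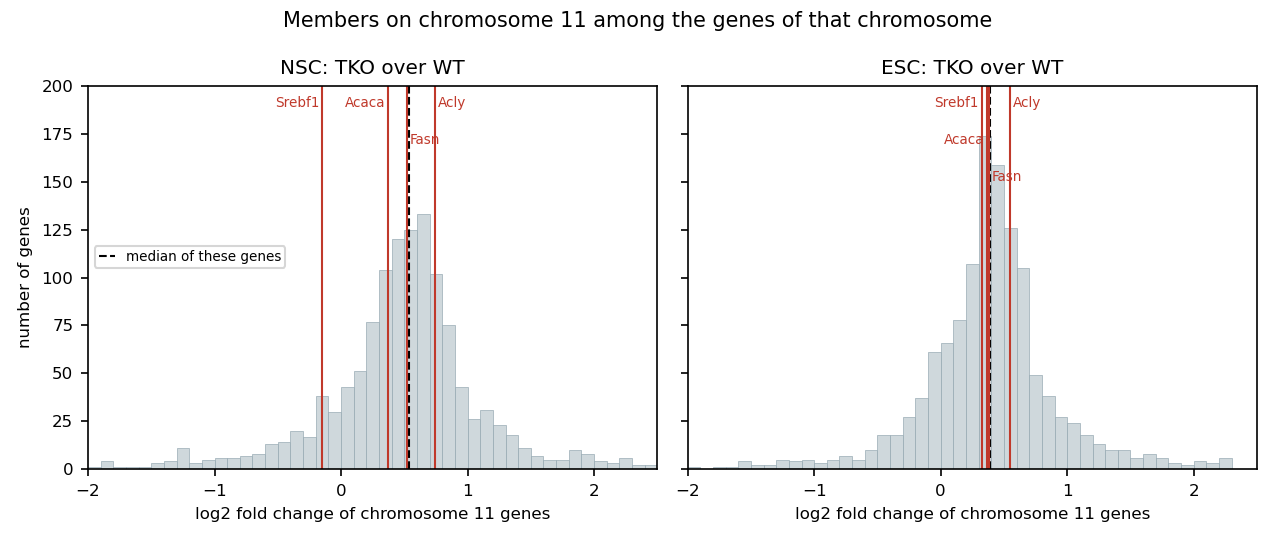
Histograms of the log2 fold change, TKO over WT, of the chromosome 11 genes tested in NSCs (left) and ESCs (right), with red lines at the 4 genes described here and a dashed line at the chromosome's median. Fasn lies near the median in both cell types and Srebf1 far below it in NSCs; 74 of 1301 genes in NSCs and 24 of 1282 in ESCs lie outside the range drawn.

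In ESCs the sterol enzymes were again on the lower side, and the fatty acid genes on the higher side. Of the 31 genes, 14 passed the test in TKO against WT ESCs, 5 higher and 9 lower, where 14.3% of all 17033 genes tested passed (7.29% higher and 7.02% lower). Among the sterol enzymes 9 of 18 fell and 0 rose, with a median log2 fold change of -0.30 against 0.01 over all genes tested; at an unadjusted p under 0.05 limma had 0 rise, and by edgeR or DESeq2 0 rose. Many of these calls were lost with a library left out: 5 of the 31 genes passed without WT library 2 and 7 without WT library 3. Many were lost too without TKO library 2. The share of all genes passing in these fits is not set beside them. A loss of power common to all genes cannot be told apart. Msmo1 alone kept its call in every setting tried.

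Msmo1 had 4876 and 4793 normalized counts in TKO ESCs, against 9102, 8746 and 8616 in WT ESCs. Its fall, a log2 fold change of -0.87 ± 0.08 (adjusted p = 7.37e-06), was the largest of the 31 genes in ESCs. On its chromosome, 8, 42.5% of 844 genes were lower in TKO ESCs, with a median of -0.41 and a middle range of -0.62 to -0.16. With chromosome medians centred the log2 fold change of Msmo1 was -0.46 (adjusted p = 0.000786), and that of Mvd, on the same chromosome, turned to 0.07 (adjusted p = 0.742). As deposited, Mvd had 4181 and 3671 normalized counts in TKO ESCs, against 4357, 5220 and 5327 in WT ESCs (-0.34 ± 0.10, adjusted p = 0.0403).

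Hsd17b7, which works in the same demethylation complex as Msmo1, had 612 and 565 normalized counts in TKO ESCs, against 981, 815 and 924 in WT ESCs. The groups did not overlap (log2 fold change -0.62 ± 0.15, adjusted p = 0.00861), though the call was lost without TKO library 2 (adjusted p = 0.0826). Ebp, the sterol isomerase, had 911 and 743 normalized counts in TKO ESCs, against 979, 1336 and 1164 in WT ESCs (-0.48 ± 0.15, adjusted p = 0.0436). Fdft1 had 7255 and 7508 normalized counts in TKO ESCs, against 9428, 9265 and 9557 in WT ESCs, and its fall of 0.35 on the log2 scale (adjusted p = 0.00598) passed whichever library was left out. Cyp51 had 7612 and 8244 normalized counts in TKO ESCs, against 10508, 9459 and 9620 in WT ESCs (-0.31 ± 0.08, adjusted p = 0.0176). The 3 other enzymes that fell were Idi1 (-0.38), Sc5d (-0.37) and Acat2 (-0.29), with adjusted p between 0.025 and 0.0394. Mvd, Cyp51, Idi1, Sc5d, Acat2 and Ebp each lost the call with more than 1 of the libraries left out in turn. The 9 enzymes that did not pass had log2 fold changes from -0.30 (Mvk) to 0.07 (Tm7sf2). Among these was Sqle, with 8257 and 8595 normalized counts in TKO ESCs against 8242, 8313 and 8147 in WT ESCs, and Hmgcs1, with 17660 and 17874 in TKO ESCs against 20404, 20300 and 20428 in WT ESCs (-0.20 ± 0.07, adjusted p = 0.0745). Of the 8 enzymes that fell in NSCs, 5 were among the 9 that fell in ESCs: Idi1, Fdft1, Cyp51, Msmo1 and Sc5d. Since 50% of all 18 sterol enzymes fell in ESCs, this overlap is near that share. The same line codes also recur in both cell types.

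Among the genes of sterol sensing and transport in ESCs, Srebf1 was the 1 of 6 that passed, 16.7% beside 14.3% of all genes tested. It had 4977 and 6171 normalized counts in TKO ESCs against 4367, 4392 and 4533 in WT ESCs (log2 fold change 0.32 ± 0.10, adjusted p = 0.0379). The call was lost without TKO library 2, without any of the 3 WT libraries, and with equal totals per library. Srebf2 had 15340 and 15610 normalized counts in TKO ESCs, against 15080, 15343 and 14849 in WT ESCs, and Scap 2004 and 1878, against 1832, 1811 and 1767. Neither passed, nor did Insig1 (-0.17), Insig2 (-0.27) and Stard4 (0.03).

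Of the 7 fatty acid genes 4 rose in ESCs and 0 fell, with a median log2 fold change of 0.38; at an unadjusted p under 0.05 limma had 0 fall, and by edgeR or DESeq2 0 fell. For the 4 outside chromosome 11, the median stood 0.16 and 0.27 above WT in the 2 TKO ESC libraries, with WT library 1 at 0.09. The 2 TKO lines differed in several of the 7 genes. Acly had 30315 and 41238 normalized counts in TKO ESCs, against 24796, 23973 and 23843 in WT ESCs (0.55 ± 0.10, adjusted p = 0.00135). Fasn had 43616 and 57615 normalized counts in TKO ESCs, against 41416, 36414 and 37769 in WT ESCs (0.38 ± 0.10, adjusted p = 0.0136). Acaca had 6114 and 8368, against 6246, 5160 and 5339, and did not pass (0.36 ± 0.12, adjusted p = 0.0509). In each, TKO library 2 stood well above TKO library 1, as did its chromosome 11 median given above. Among the 1282 chromosome 11 genes tested, of which 34.3% were higher in TKO ESCs, Acly stood at percentile 68.2, Fasn at 48.7, Acaca at 45.4 and Srebf1 at 40.2. With chromosome medians centred none of the 4 passed, and Srebf1, Acaca and Fasn changed sign (-0.07, -0.03 and -0.01; Acly 0.15).

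Scd1, on chromosome 19, showed the same split of the TKO lines, with 6284 and 8611 normalized counts in TKO ESCs against 6097, 5112 and 5470 in WT ESCs (log2 fold change 0.41 ± 0.12, adjusted p = 0.0263). It did not pass without TKO library 2 (adjusted p = 0.428) or without WT library 2 or 3. Elovl6 had 8271 and 8684 normalized counts in TKO ESCs, against 7078, 6593 and 5955 in WT ESCs (0.38 ± 0.09, adjusted p = 0.00918), and did not pass without TKO library 2 or without WT library 3. Scd2 (-0.01) and Me1 (0.10) did not pass in ESCs.

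The effect of the knockout on 10 of the 31 genes differed between NSCs and ESCs when the difference itself was tested, where 20.7% of 15369 genes differed (10.9% higher in NSCs and 9.81% lower). For 6 genes the log2 fold change was lower in NSCs. Scd1 differed most, by -1.25 ± 0.17 (adjusted p = 0.000149), being lower in TKO NSCs and higher in TKO ESCs. Me1 differed by -0.99 ± 0.11 (adjusted p = 4.25e-05), Sqle by -0.85 ± 0.10 (adjusted p = 5.34e-05) and Hmgcs1 by -0.52 ± 0.09 (adjusted p = 0.001). For Me1, Sqle and Hmgcs1 the fall in TKO NSCs stood beside no call in TKO ESCs. Srebf1 (-0.47) and Scd2 (-0.44) completed this group. For 4 sterol enzymes the log2 fold change was higher in NSCs: Hsd17b7 by 0.76 ± 0.15 (adjusted p = 0.00312), Ebp by 0.76 ± 0.23 (adjusted p = 0.0299), Mvd by 0.56 ± 0.13 (adjusted p = 0.0082) and Msmo1 by 0.38 ± 0.09 (adjusted p = 0.0115). Ebp did not pass without TKO ESC library 2, WT ESC library 2 or 3, TKO NSC library 2 or WT NSC library 3. The number higher in NSCs was 2, in place of 4, without TKO NSC library 2, and with chromosome medians centred Mvd did not pass and Msmo1 turned to -0.02. Hmgcs1, Sqle, Hsd17b7, Scd1 and Me1 kept their calls in every setting tried. The number with a lower log2 fold change in NSCs was 4, in place of 6, without TKO NSC library 1.

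**Figure D3:**
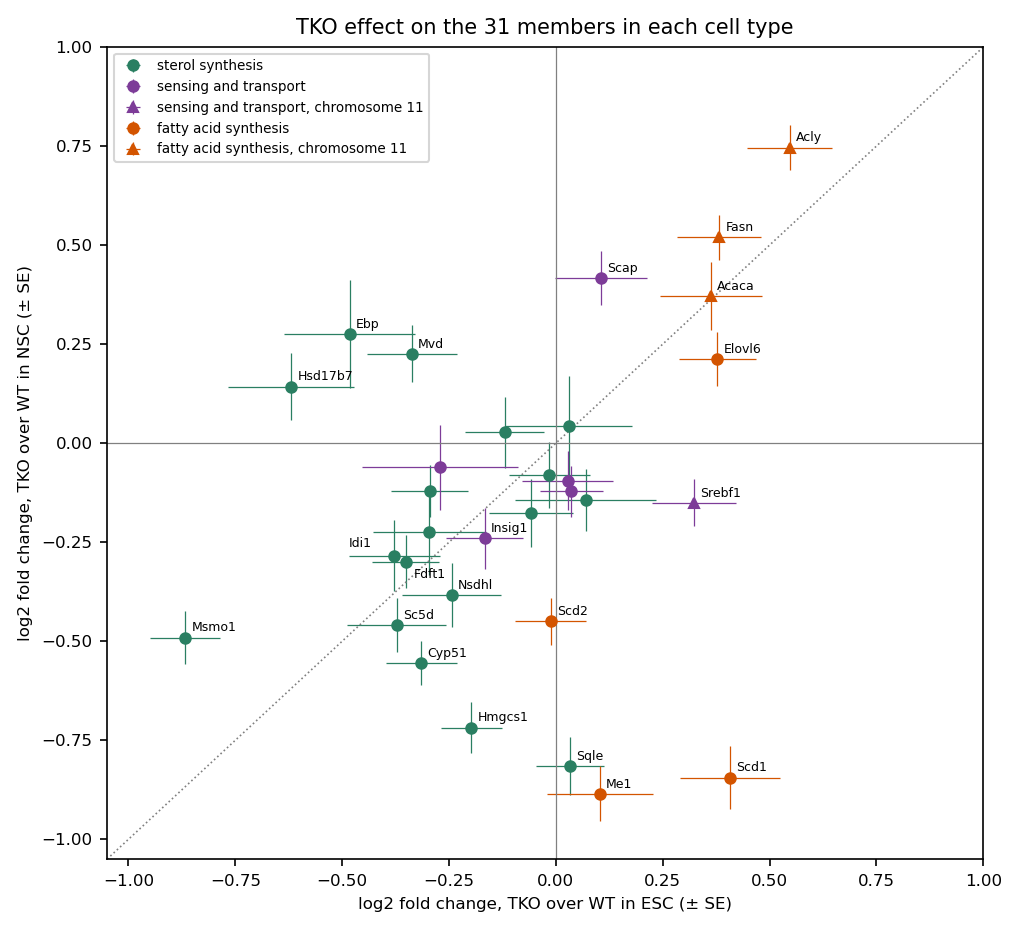
Log2 fold change, TKO over WT, of the 31 genes in NSCs (vertical axis) and ESCs (horizontal axis), with standard errors; triangles are genes of chromosome 11, genes that passed in NSCs or whose effect differed between the cell types are named, and the dotted line marks equal values. Scd1, Me1, Sqle and Hmgcs1 lie far below the line, and Hsd17b7, Ebp and Mvd above it.

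The change from ESCs to NSCs could be set side by side once the reads of all 10 libraries were scaled together. Of the 31 genes, 24 passed between NSCs and ESCs in TKO cells, 12 higher and 12 lower, where 70.2% of 15381 genes passed (35.4% higher and 34.8% lower). In WT cells 28 passed, 16 higher and 12 lower, where 75.3% passed (37.8% higher and 37.5% lower). These were 77.4% and 90.3% of the 31 genes. The split depends on the scaling: with equal totals per library, which raised the median gene by 0.39 in TKO and 0.33 in WT on the log2 scale, it was 19 higher and 7 lower in TKO and 18 higher and 8 lower in WT.

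The genes of the fatty acid chain itself were lower in NSCs in both genotypes. Fasn had 29442 and 30796 jointly scaled counts in TKO NSCs, against 51014 and 66632 in TKO ESCs (log2 fold change, NSC over ESC, -0.95 ± 0.10, adjusted p = 1.13e-06). In WT cells it had 21999, 20502 and 21192 in NSCs, against 48578, 42393 and 43833 in ESCs (-1.08 ± 0.09, adjusted p = 2.17e-08). Acly, Acaca and Elovl6 were lower too, by -0.78, -1.04 and -1.07 in TKO and by -0.97, -1.04 and -0.90 in WT, and all 4 passed also with equal totals. The desaturase Scd2 was higher in NSCs, with 85074 and 91741 jointly scaled counts in TKO NSCs against 38505 and 45939 in TKO ESCs, and 118130, 126572 and 121140 in WT NSCs against 44952, 42277 and 40477 in WT ESCs. Its log2 fold change was 1.07 ± 0.09 in TKO (adjusted p = 5.25e-08) and 1.52 ± 0.07 in WT (adjusted p = 7.37e-11).

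In WT cells Scd1 was higher in NSCs, with 15228, 16234 and 15483 jointly scaled counts in WT NSCs against 7151, 5952 and 6348 in WT ESCs (1.27 ± 0.10, adjusted p = 3.51e-08). In TKO cells it had 7813 and 9520 in NSCs, against 7350 and 9959 in ESCs, and did not pass (0.01 ± 0.13, adjusted p = 0.943). Me1 had 1841 and 1859 in TKO NSCs against 1371 and 1303 in TKO ESCs, and 3492, 3467 and 3399 in WT NSCs against 1278, 1217 and 1249 in WT ESCs. It was higher in NSCs in both genotypes, by 0.47 ± 0.09 in TKO (adjusted p = 0.000277) and 1.47 ± 0.07 in WT (adjusted p = 1.29e-10). Sqle was lower in NSCs in TKO cells, with 6242 and 7323 jointly scaled counts in TKO NSCs against 9657 and 9940 in TKO ESCs (-0.54 ± 0.08, adjusted p = 2.04e-05), a call lost with equal totals. In WT cells Sqle was higher in NSCs, with 12318, 11670 and 12072 against 9667, 9678 and 9455 in WT ESCs (0.32 ± 0.06, adjusted p = 0.000285). The difference between the genotypes in each of these changes is the same contrast as the tested difference of the knockout effect above, so it adds no second test. That test used both tables as deposited, not the jointly scaled reads, so its values differ slightly.

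**Figure D4:**
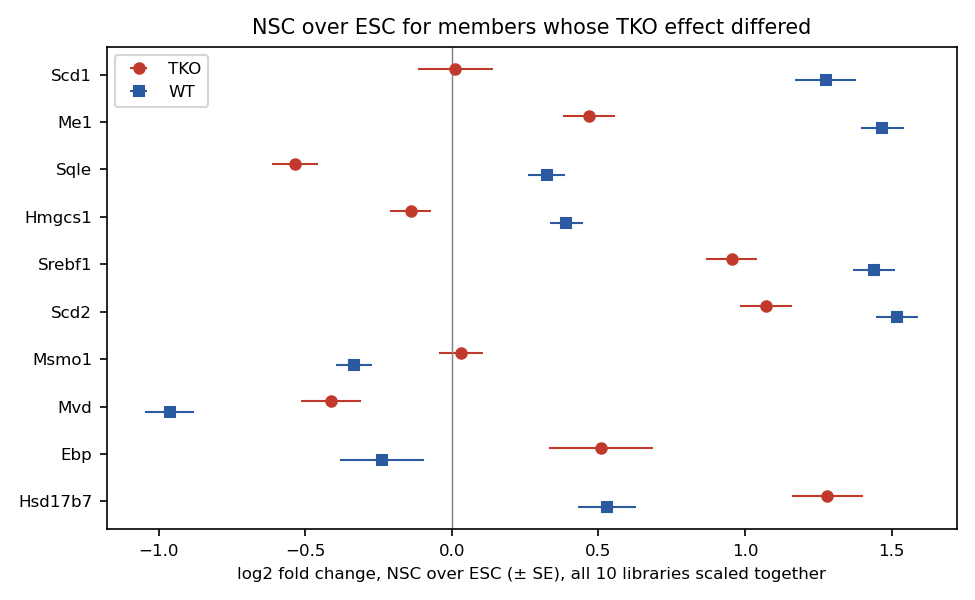
Log2 fold change, NSC over ESC, with standard errors, in TKO (circles) and WT cells (squares) for the 10 genes whose knockout effect differed between the cell types. Scd1 stands at 0.01 in TKO and 1.27 in WT, and Sqle at -0.54 in TKO and 0.32 in WT; with equal totals per library all points lie further to the right.

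Among sterol genes, Tm7sf2, a sterol C14 reductase, was higher in NSCs in both genotypes, with 1724 and 1844 jointly scaled counts in TKO NSCs against 643 and 598 in TKO ESCs, and 2015, 1967 and 1990 in WT NSCs against 541, 632 and 607 in WT ESCs (log2 fold changes 1.52 and 1.75). Srebf1 was likewise higher, with 12027 and 12979 in TKO NSCs against 5822 and 7137 in TKO ESCs, and 13884, 14369 and 13787 in WT NSCs against 5123, 5113 and 5261 in WT ESCs (0.95 and 1.44). Both genes passed in both genotypes and also with equal totals. Idi1 (-1.38 in TKO and -1.47 in WT) and Insig1 (-1.02 in TKO and -0.94 in WT) were lower in NSCs, with equal totals too. Scap was higher by 1.17 in TKO and 0.87 in WT.

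Other lipid genes, grouped in 6 lists, were read beside these. In NSCs the share of a list's genes that passed ran from 8.33% to 60% over the 6 lists, beside 37.7% of all genes tested. There, 7 of 15 further genes of sterol and SREBP regulation passed, 2 higher and 5 lower, with a median log2 fold change of -0.14. Lbr, which also has sterol C14 reductase activity, was among those that were lower (-0.47). Of 12 genes of the non-sterol isoprenoid branch 1 passed in NSCs, Icmt, which was higher (0.26), and the list's median was -0.0038.

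Of 18 genes of cholesterol uptake, transport, storage and efflux, 5 rose and 5 fell in NSCs, 55.6% beside the 37.7% of all genes tested. Cyp46a1, the cholesterol 24-hydroxylase of brain, had 571 and 582 normalized counts in TKO NSCs, against 2570, 2554 and 2459 in WT NSCs (log2 fold change -2.13 ± 0.09, adjusted p = 3.52e-08). The efflux transporter Abca1 fell by 1.54 and the lipoprotein receptor Lrp8 by 1.38. Of 26 other genes of fatty acid synthesis, elongation and desaturation, 6 rose and 7 fell in NSCs. Mid1ip1, which activates acetyl-CoA carboxylase, had 1973 and 2508 normalized counts in TKO NSCs, against 5985, 5665 and 5709 in WT NSCs (-1.38 ± 0.10, adjusted p = 1.08e-06), while Fads3 rose by 0.93 and the elongase Elovl1 by 0.68. Of 17 fatty acid oxidation genes 4 rose and 2 fell, 35.3% and so near the share of all genes. Acaa2 (0.72), Acadvl (0.65) and Acads (0.58) had the smallest adjusted p. Acadvl lies on chromosome 11 and lost its call with chromosome medians centred. Of 15 genes of glycerolipid synthesis and lipid droplets 5 rose and 4 fell, among them Plin3 (0.79), Lipe (-1.30) and Lpin2 (-0.79).

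In ESCs the share of each list that passed ran from 15.4% to 33.3%, beside 14.3% of all genes tested. In the order above, 4 of 15 passed (1 higher), 2 of 12 (both lower), 3 of 18 (1 higher), 4 of 26 (2 higher), 3 of 16 tested (all higher) and 5 of 15 (1 higher). Apoe, the main apolipoprotein of brain, had 15035 and 9947 normalized counts in TKO ESCs, against 18160, 22540 and 22203 in WT ESCs (-0.77 ± 0.13, adjusted p = 0.000876), and Lrp8 had 623 and 605, against 1153, 945 and 1062 (-0.77 ± 0.14, adjusted p = 0.00149). Mid1ip1 was lower also in TKO ESCs (-0.64). Mbtps1, the protease that cleaves SREBPs (-0.48), the prenyltransferase subunit Fnta (-0.36), the enoyl reductase Tecr (-0.65) and Agpat5 (-0.55) were lower and all lie on chromosome 8. With chromosome medians centred, Tecr alone of these 4 still passed (-0.25, adjusted p = 0.0377). Other calls by the same rule were Tmem97 (0.56), Pggt1b (-0.40), Npc1 (0.38), Hacd2 (0.56), Eci1 (0.59), Slc25a20 (0.50), Acadvl (0.51), Lpin1 (0.50) and Dgat2 (-0.76). Tmem97 and Acadvl, both on chromosome 11, lost their calls with chromosome medians centred. Without WT library 2, Pggt1b, Npc1, Acadvl, Lpin1 and Dgat2 did not pass. Among the genes of this list Hacd2 alone kept its call in every setting tried.

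Promoter capture Hi-C, which lists contacts of promoter fragments, was deposited for 1 TKO NSC and 1 WT NSC library, so no test is possible. Loops were counted when a fragment held either end of a gene. The 31 genes had 140 loops in TKO NSCs and 167 in WT NSCs, of which 58 were in both, beside 51122 and 51990 distinct fragment pairs in all. There were more in TKO NSCs for 8 genes, fewer for 17, as many for 5, and none in either library for Fdft1. This split was not counted over all genes. Acly and Fasn each had 12 loops in TKO NSCs and 6 in WT NSCs. Both lie on chromosome 11, where 59.5% of the genes tested had higher RNA in TKO NSCs. Their loops were not set beside a loop total for that chromosome. Me1 had 2 loops in TKO NSCs and 9 in WT NSCs, and Tm7sf2 had 5 and 13. Elovl6 had 3 loops in TKO NSCs and 0 in WT NSCs, and Acaca 0 and 2. Among loops with the authors' score of at least 10 the 31 genes had 18 in TKO NSCs and 17 in WT NSCs.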

How the data were processed

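Per the submitters' processing notes, reads were handled with tools that include STAR 2.7.3a, Trim Galore 0.6.5, DESeq2 1.40.2 and featureCounts, and the genome build named is mm10. Expression was deposited as a non-negative signal: per the labels, normalized counts from DESeq2, in 1 table per cell type, each normalized by the authors on its own. In every library 100% of values were whole multiples of 1 step within a tolerance of 1e-06, which gave back whole reads; for WT ESC libraries 2 and 3 the step was so near 1 that an automatic check of this recovery did not pass. Values up to 20 reads were even numbers in 75.2% to 82.7% of cases, as counts of both mates would be. 0 columns were left unused. The deposited loop lists give pairs of fragments with a score from the authors; the sources used here do not name their caller.

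Genotypes were compared table by table with limma 3.58.1 (R 4.3.3; trend) on log2(value + 1), two-sided, keeping genes whose mean was at least 10; p was adjusted by Benjamini-Hochberg over all genes tested, with a threshold of 0.05. The difference of the TKO effect was the interaction over all 10 libraries. For NSC against ESC, recovered reads of all 10 libraries, those of WT ESC libraries 2 and 3 included, were put on 1 scale by median-of-ratios factors. Alternatives were pseudocounts of 0.5 and 5, no filter or a mean of at least 50, edgeR 4.0.16 and DESeq2 1.42.0 on recovered reads, equal totals, a replicate block, centred chromosome medians, robust estimation, 1 fit of all libraries, and each library left out. edgeR called 14.0% of genes in ESCs and 37.0% in NSCs. The method was tested on simulated data.

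The line codes pair ESC with NSC libraries, and the deviations of paired libraries correlated at 0.042 in TKO. This value is the same for both TKO lines by construction, since the deviations of 2 libraries mirror each other. In WT the 3 pairs correlated at -0.034, -0.0022 and -0.0027. Of 19426 genes, 91.2% had a position in the GRCm38.p6 annotation. The sources used here do not say whether counting used strand, so reads of overlapping genes may not be told apart, as for Fdft1 (Ctsb), Acaca (Tada2a), Srebf1 (Rai1) and Tm7sf2 (Vps51). Levels were not compared between genes, since transcript lengths were not used here. The genes, lists and tests were chosen with earlier results of these data known. Named beyond the 31 genes are the 3 with the smallest adjusted p that passed in each list, less 2 genes that are not reported here. Not analysed here were the 20 CUT&Tag and 4 bisulfite samples.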

Additional observations from a re-analysis of the deposited data

Results flagged for a closer look

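The effect of the Tet knockout on 10 of the 31 genes differed between NSCs and ESCs by the limma interaction, in which 20.7% of 15369 genes differed. The values are log2 fold changes, TKO over WT. Scd1 differed by -1.25 (NSC -0.84, ESC 0.41) and Mvd by 0.56 (NSC 0.23, ESC -0.34), and these were called in opposite directions in the cell types. Mvd lies on chromosome 8. With chromosome medians centred its ESC value was 0.07 (limma adjusted p = 0.742), and its difference did not pass. Over 16 other settings, the NSC call of Mvd was lost in 6 and the ESC call of Scd1 in 3. Me1 differed by -0.99 (NSC -0.89, ESC 0.10), Sqle by -0.85 (NSC -0.81, ESC 0.03) and Hmgcs1 by -0.52 (NSC -0.72, ESC -0.20). Srebf1 differed by -0.47 (NSC -0.15, ESC 0.32) and Scd2 by -0.44 (NSC -0.45, ESC -0.01). Hsd17b7 differed by 0.76 (NSC 0.14, ESC -0.62), Ebp by 0.76 (NSC 0.28, ESC -0.48) and Msmo1 by 0.38 (NSC -0.49, ESC -0.87). Msmo1 lies on chromosome 8 too, and its difference changed sign with chromosome medians centred. Markers of neural stem cells, of astrocytes, of fibroblasts and of ESCs and genes of sample handling and stress moved with genotype in NSCs, and genes of chromosome 8 in ESCs, as given above, and their part in these differences was not tested.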

How the results depend on the processing

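Calls of the 31 genes in NSCs changed less with the processing than those in ESCs. For libraries left out, the replicate block and centred chromosomes, the share of all genes passing is not set beside these counts. A loss of power common to all genes cannot be told apart there. Of the 31 genes in NSCs, 14 to 17 passed with 1 library left out, 3 to 5 higher and 10 to 12 lower, in place of 18 (6 and 12). In ESCs 4 to 13 passed, 1 to 6 higher and 3 to 8 lower, in place of 14 (5 and 9). TKO and WT libraries share only replicate numbers, and same-numbered libraries correlated at -0.07 and -0.04 in ESCs and at 0.05 and -0.02 in NSCs. These values are not independent, since the deviations of the 2 TKO libraries of a cell type mirror each other. With the replicate number as block, 6 genes passed in ESCs, 3 higher and 3 lower, and 15 in NSCs. With chromosome medians centred, 9 passed in ESCs, 2 of them higher, and 16 in NSCs. For the difference of the TKO effect, 2 to 5 genes were higher and 4 to 7 lower with 1 library left out. With the line as replicate block it was again 4 and 6. For NSC over ESC in TKO, equal totals gave 19 higher and 7 lower. Loops with a score of at least 10 numbered 18 (TKO) and 17 (WT).

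Signs changed as follows. With chromosome medians centred, ESC values became 0.066 (Mvd), -0.071 (Srebf1), -0.031 (Acaca), -0.012 (Fasn) and 0.041 (Fnta), NSC values -0.17 (Acaca) and -0.018 (Fasn), and the difference for Msmo1 -0.019. With equal totals, NSC over ESC became 0.26 (Hmgcs1) and 0.21 (Srebf2) in TKO and 0.089 (Ebp) in WT. With 1 library left out, ESC values spanned -0.16 to 0.13 (Pmvk), -0.15 to 0.12 (Lss), -0.19 to 0.078 (Dhcr7), -0.077 to 0.13 (Stard4; -0.0047 with the replicate block) and -0.15 to 0.12 (Scd2). NSC values spanned -0.12 to 0.20 (Pmvk), -0.038 to 0.12 (Fdps), -0.22 to 0.053 (Lss), -0.17 to 0.044 (Insig2) and -0.076 to 0.36 (Tet2). NSC over ESC in TKO spanned -0.038 to 0.10 (Msmo1) and -0.21 to 0.23 (Scd1). None of the values in the last 3 sentences was called in the main analysis. For the difference and for NSC over ESC, signs were followed only for genes called in that comparison or in the difference, a choice made after sign changes among uncalled genes had been seen. Chromosome centring removes shared shifts by construction, so it tests no cause. The cause of these sign changes was not tested. With 2 TKO libraries in each cell type, small changes rest on the spread pooled over both genotypes.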
